A study of Mus musculus with 8 samples.

Results

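The 10 genes S100a8, S100a9, Trem1, Retnlg, Csf3r, Csf3, Clec4d, Mmp8, Mmp9 and Lcn2, which encode granule and cytosolic proteins, receptors and a growth factor of neutrophils, were followed in bulk RNA-seq of 8 MC38 tumors. They are 10 of the 24421 genes in the count table, and all 10 were among the 14468 genes that passed the expression filter and were tested. The genes were selected on earlier results of these same tables, in which neutrophil genes stood higher in photoconverted tumors, so their fold changes between the groups are given here as a description and support nothing further. MC38 is a mouse colon adenocarcinoma line, here grown under the skin of 9-week-old female C57BL/6 Kaede mice after injection of 250000 cells. Every mouse carried Kaede, a fluorescent protein that turns from green to red in violet light. In 4 mice the tumor was lit through the skin at 405 nm (violet) for 3 min on day 10 and collected 5 h later, and in 4 control mice the tumor was collected at the same time without exposure. The comparison asks what the labeling procedure itself does to the tumor. Whole tumors were homogenized, so the RNA came from tumor cells, stroma, blood and infiltrating leukocytes together, and a change in the number of neutrophils and a change in the RNA per neutrophil cannot be told apart.

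Neutrophils mature in the bone marrow, and the transcripts of their granule proteins are made in sequence. Promyelocytes transcribe the primary granule proteases and myeloperoxidase, myelocytes transcribe secondary granule proteins such as lactoferrin and cathelicidin, and these messages have largely ceased by the time the mature cell enters the blood. The mature cell keeps high levels of S100a8 and S100a9 and carries the receptor for granulocyte colony-stimulating factor (G-CSF), the chemokine receptor Cxcr2, and transcripts of gelatinase granule proteins such as Mmp9. Several of the 10 genes are also used by other cells, for example Mmp9 and Clec4d by macrophages and S100a8, S100a9 and Lcn2 by stressed epithelium.

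Total counts lay between 12576615 and 35844417 per tumor. Photoconverted tumor 4 and control tumors 2 and 4 had the 3 lowest totals and gave 21.9% to 35.7% of their counts to Rn45s, the ribosomal RNA precursor, whereas the other 5 tumors gave 2.70% to 9.65%. edgeR's quasi-likelihood test called 0 of the 14468 genes at an adjusted p under 0.05 (322 had an unadjusted p under 0.05), and DESeq2 called 24. Markers of the neutrophil lineage were read with one gap, since Ly6g had no value in the table, and the summed level of the epithelial and tumor cell markers Epcam, Krt8, Krt18, Cdh1 and Cldn4 was low in all 8 tumors (2.46 to 5.84 CPM, reads scaled to a common library size).

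All values below are CPM scaled with edgeR's TMM factors unless another scale is named. The positions are those of the GENCODE gene models on mouse build GRCm38, the same assembly as the mm10 build of the submitters' processing notes. S100a8 (chr3:90668978-90670035, plus strand) and S100a9 (chr3:90692632-90695721, minus strand) are neighbors on chromosome 3. Trem1 lies at chr17:48232768-48246924, Retnlg at chr16:48872621-48874496, Csf3r at chr4:126024550-126044440, Csf3 at chr11:98701263-98703629, Clec4d at chr6:123262111-123275265 and Mmp8 at chr9:7558456-7568485, all on the plus strand. Mmp9 (chr2:164940780-164955850, plus strand) and Lcn2 (chr2:32384633-32388252, minus strand) are both on chromosome 2. All 10 are protein-coding, and in these gene models no exon of any of them overlaps an exon of another annotated gene on either strand. The annotation behind the deposited counts is not given, so the assignment of reads in them was not checked.

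The promoters of S100a8, S100a9 and Trem1 are shown because these genes had the 3 largest fold differences and like profiles across the tumors. Each is the 300 bases from 250 before to 50 after the transcription start that RefSeq gives on GRCm38.p6, read 5′ to 3′ on the strand of the gene (S100a8, chr3:90668821-90669120, plus; S100a9, chr3:90695672-90695971, minus; Trem1, chr17:48232489-48232788, plus). Capitals mark letters that match a searched motif on either strand, namely C/EBP (TTNNGNAA), PU.1 (GAGGAA), NF-kB (GGG, 2 of any letter, TT, 1 of any letter, then CC), the heat shock element (GAANNTTC) and the TATA box (TATAAA).
S100a8: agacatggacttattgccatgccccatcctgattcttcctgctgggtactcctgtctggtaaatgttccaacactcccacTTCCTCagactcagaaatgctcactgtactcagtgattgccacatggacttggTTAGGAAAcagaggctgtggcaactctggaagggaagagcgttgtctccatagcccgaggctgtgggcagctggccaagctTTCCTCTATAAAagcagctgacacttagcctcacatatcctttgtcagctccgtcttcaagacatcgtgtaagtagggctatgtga
S100a9: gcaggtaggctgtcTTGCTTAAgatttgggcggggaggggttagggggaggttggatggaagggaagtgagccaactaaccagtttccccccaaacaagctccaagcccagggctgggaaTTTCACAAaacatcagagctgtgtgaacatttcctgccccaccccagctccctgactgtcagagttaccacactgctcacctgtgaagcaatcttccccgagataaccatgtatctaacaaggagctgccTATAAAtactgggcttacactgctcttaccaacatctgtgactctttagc
Trem1: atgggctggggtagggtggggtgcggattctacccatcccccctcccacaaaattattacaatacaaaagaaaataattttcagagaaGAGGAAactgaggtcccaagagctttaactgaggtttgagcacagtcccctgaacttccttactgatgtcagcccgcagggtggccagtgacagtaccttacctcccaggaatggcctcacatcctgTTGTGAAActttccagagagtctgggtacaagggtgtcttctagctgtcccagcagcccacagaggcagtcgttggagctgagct
In S100a8 a match to the C/EBP letters begins 117 bases before the start, and a PU.1 match adjoins the TATA match that begins 30 bases before it. S100a9 has C/EBP matches that begin 236 and 130 bases before the start and no PU.1 match, and Trem1 has a PU.1 match 162 and a C/EBP match 35 bases before the start. Among the 8 of the 10 genes whose promoter is in the table used (all but Csf3 and Mmp9), 7 held the C/EBP letters, as did 40.7% of all 32851 promoters of that table, and 6 held the PU.1 letters, against 28.3% of all. The TATA letters were in 3 of the 8 (13.6% of all promoters), the heat shock element was in 1 (Clec4d, 7.86% of all) and the NF-kB letters were in 0 (4.79% of all). A match of letters is a description of these windows, and a window without a match says nothing about the factor.

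S100a8 and S100a9 encode the calcium-binding partners of calprotectin, an abundant cytosolic protein of neutrophils. S100a8 was at 10.4, 10.4, 18.1 and 1.37 CPM in photoconverted tumors 1 to 4, against 2.46, 0.321, 1.92 and 1.46 CPM in controls 1 to 4. Photoconverted tumors 1 to 3 thus stood above every control, and photoconverted tumor 4 stood among the controls. S100a9 was at 17.7, 22.4, 29.8 and 2.60 CPM in photoconverted tumors and at 3.80, 1.93, 1.95 and 4.76 CPM in control tumors, with the same tumors high and the same tumor low. S100a8 averaged 10.1 ± 6.85 CPM with photoconversion and 1.54 ± 0.908 CPM without it (SD, n = 4 each), a log2 fold change of 2.62 (SE 0.70). For S100a9 the means were 18.1 ± 11.5 and 3.11 ± 1.41 CPM (SD, n = 4 each), a log2 fold change of 2.53 (SE 0.63). Relative to the control mean, the mean of photoconverted tumors 1 to 3 was 8.41-fold for S100a8 and 7.50-fold for S100a9, whereas photoconverted tumor 4 alone was at 0.887 and 0.835 of it. In raw counts S100a8 had 415, 328, 460 and 20 reads in photoconverted and 86, 3, 54 and 24 reads in control tumors, so its lowest control value rests on 3 reads. For S100a8, photoconverted tumor 4 and the 2 lowest controls (2 and 4) are the libraries of low total count and high Rn45s share, and for S100a9 control tumor 4, of the same kind, was the highest control. The part of depth and Rn45s share in these values was not tested beyond the alternatives named here.

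The 3 receptor genes were also higher in photoconverted tumors 1 to 3 than in every control, with smaller differences, but the order among the remaining tumors varied from gene to gene. Trem1, which encodes a receptor that amplifies inflammatory responses of neutrophils and monocytes, was at 7.13, 8.91, 7.92 and 2.19 CPM in photoconverted tumors and at 2.20, 2.46, 1.88 and 1.83 CPM in control tumors. The 4 controls lay close together (2.09 ± 0.294 CPM, SD), photoconverted tumor 4 lay among them, and the log2 fold change was 1.66 (SE 0.39). Csf3r, the receptor for G-CSF, was at 22.1, 25.3, 39.4 and 12.98 CPM in photoconverted tumors and at 18.3, 12.0, 14.8 and 8.85 CPM in control tumors. Its groups overlapped through photoconverted tumor 4, and the log2 fold change was 0.88 (SE 0.34), or 0.58 without photoconverted tumor 3. Clec4d, a C-type lectin of neutrophils and macrophages that binds fungal and mycobacterial surface molecules, was at 17.0, 12.4, 20.1 and 7.04 CPM in photoconverted tumors and at 7.85, 4.92, 6.40 and 5.19 CPM in control tumors. Here photoconverted tumor 4 exceeded 3 of the 4 controls, and the log2 fold change was 1.21 (SE 0.31). Between tumors with the same replicate number, Trem1, Csf3r and Clec4d were higher in the photoconverted tumor in 4 of 4 pairs, whereas each of the other 7 genes was higher in 3 of 4. Whether the numbers mark matched tumors could not be settled.

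Among the secreted and granule proteins the differences ranged from near 3-fold to almost none. Retnlg, a resistin-like secreted protein of neutrophils, was at 1.43, 2.94, 3.39 and 0.410 CPM in photoconverted and at 0.999, 0.856, 0.498 and 0.488 CPM in control tumors (log2 fold change 1.54, SE 0.58). Mmp8, the neutrophil collagenase, was at 1.28, 2.21, 3.03 and 0.478 CPM in photoconverted and at 0.885, 0.428, 0.924 and 0.488 CPM in control tumors (log2 fold change 1.30, SE 0.52). Both are low in whole tumors, with 6 and 7 reads in photoconverted tumor 4, and that tumor was below the control mean for both. Lcn2, an iron-scavenging lipocalin stored in secondary granules, was at 8.06, 6.70, 8.16 and 3.14 CPM in photoconverted and at 4.94, 1.39, 3.80 and 4.15 CPM in control tumors. Photoconverted tumors 1 to 3 exceeded all controls for Lcn2, the tumor with the lowest value was control tumor 2, and the log2 fold change was 0.84 (SE 0.40). Mmp9, a gelatinase, was at 28.4, 35.1, 29.8 and 26.5 CPM in photoconverted and at 31.4, 25.3, 28.4 and 18.5 CPM in control tumors. The Mmp9 values of the groups were intermingled, and its log2 fold change of 0.21 (SE 0.18) was the smallest of the 10. It was 0.12 without photoconverted tumor 2, 0.32 without control tumor 1 and 0.077 without control tumor 4, and 0.056 in the 5 tumors below 10% of Rn45s. The log2 ratio of Mmp9 to Mmp8 was 4.39 ± 1.05 in photoconverted and 5.30 ± 0.41 in control tumors (SD, n = 4 each). The groups overlapped, since photoconverted tumor 4 was at 5.79 and the controls were at 4.94 to 5.88. The few Mmp8 reads limit this ratio.

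Csf3 encodes G-CSF, the growth factor that drives granulopoiesis and that is made mainly by stromal cells, endothelium and macrophages. It was at 1.13, 1.80, 1.69 and 0.137 CPM in photoconverted tumors and at 0.314, 0.642, 0.391 and 0.549 CPM in control tumors, from 45, 57, 43 and 2 reads and from 11, 6, 11 and 9 reads. Photoconverted tumors 1 to 3 each exceeded every control, photoconverted tumor 4 had the lowest value of all 8, and the log2 fold change was 1.44 (SE 0.60), or 0.86 in limma on log2 of the deposited normalized values plus 1. The log2 ratio of Csf3 to its receptor Csf3r was -4.80 ± 1.22 in photoconverted and -4.83 ± 0.87 in control tumors (SD, n = 4 each) and the values overlapped. Photoconverted tumor 4, with its 2 Csf3 reads, was at -6.57, whereas photoconverted tumors 1 to 3 were at -4.29, -3.81 and -4.54.

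**Figure D1:**
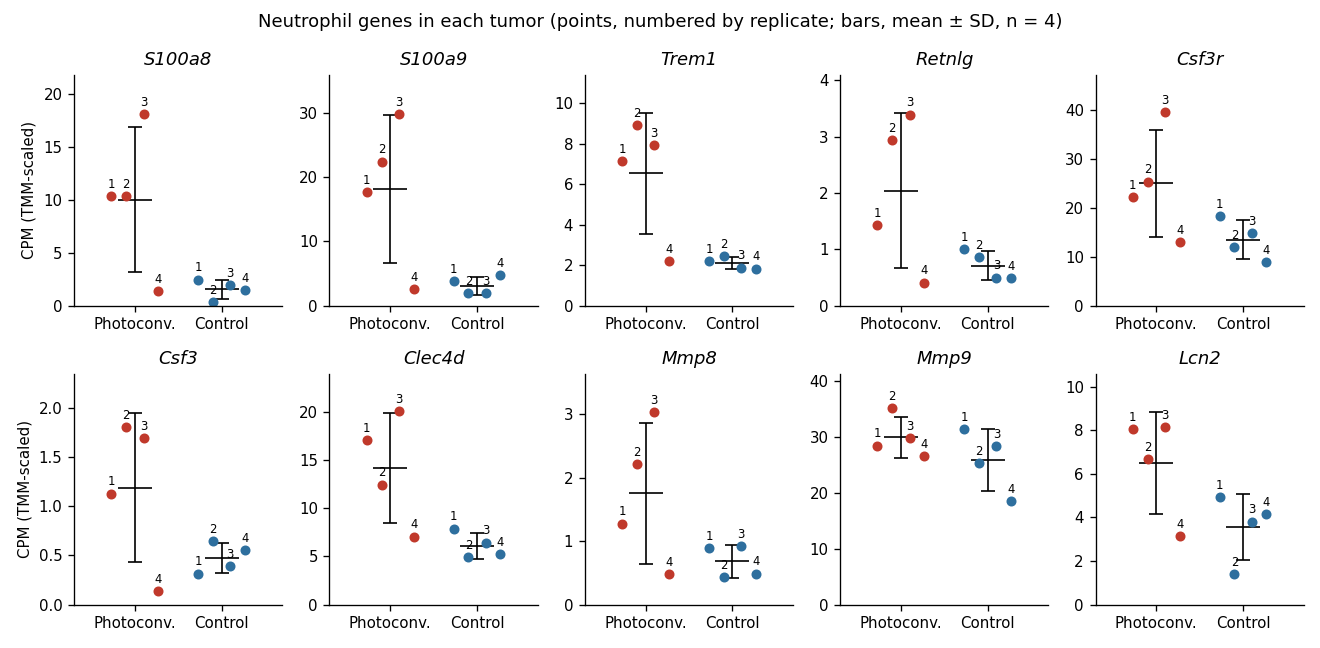
Each panel plots the CPM (TMM-scaled, linear axis from 0) of 1 gene in the 4 photoconverted and 4 control tumors, with points numbered by replicate and bars giving the mean ± SD (n = 4). Photoconverted tumor 4 is the lowest photoconverted tumor in all 10 panels, and tumors 1 to 3 lie above every control in all panels but that of Mmp9.

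Read together, all 10 genes had a log2 fold change above 0, with a median of 1.37 (range 0.21 to 2.62), beside a median of -0.01 over the 14468 genes tested. With Benjamini-Hochberg adjustment over all genes, edgeR called 0 of the 10 at an adjusted p under 0.05, as it called 0% of all genes tested, and the adjusted p of each was 0.999. At an unadjusted p under 0.05, 8 of the 10 were higher in photoconverted tumors (all but Mmp9 and Lcn2), beside 1.65% of all genes tested, a share from which nothing is read because the genes were selected on this contrast. None of the 10 had groups that did not overlap, beside 0.684% of all genes that lay higher in photoconverted tumors without overlap. For 9 of the 10 the overlap came from photoconverted tumor 4 alone, which had the lowest photoconverted value of all 10 genes (as it had for 5877 of the 14468 genes tested), and for Mmp9 from other tumors as well. DESeq2's Wald test called S100a8, S100a9 and Trem1 (3 of 10, beside 0.141% of the 17005 genes it tested), and so did edgeR when only the 5 tumors below 10% of Rn45s were used (beside 0.275% of 15252), whereas limma called 0. Without photoconverted tumor 4 edgeR called S100a9 and Trem1 (beside 0.0745% of 14770 genes), and the median log2 fold change was 1.68. The log2 fold change of each gene stayed above 0 in all 17 alternative analyses. Nothing is read from these calls, their shares or these signs either, because the genes were selected on this contrast. The fit of 5 tumors also leaves out photoconverted tumor 4.

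**Figure D2:**
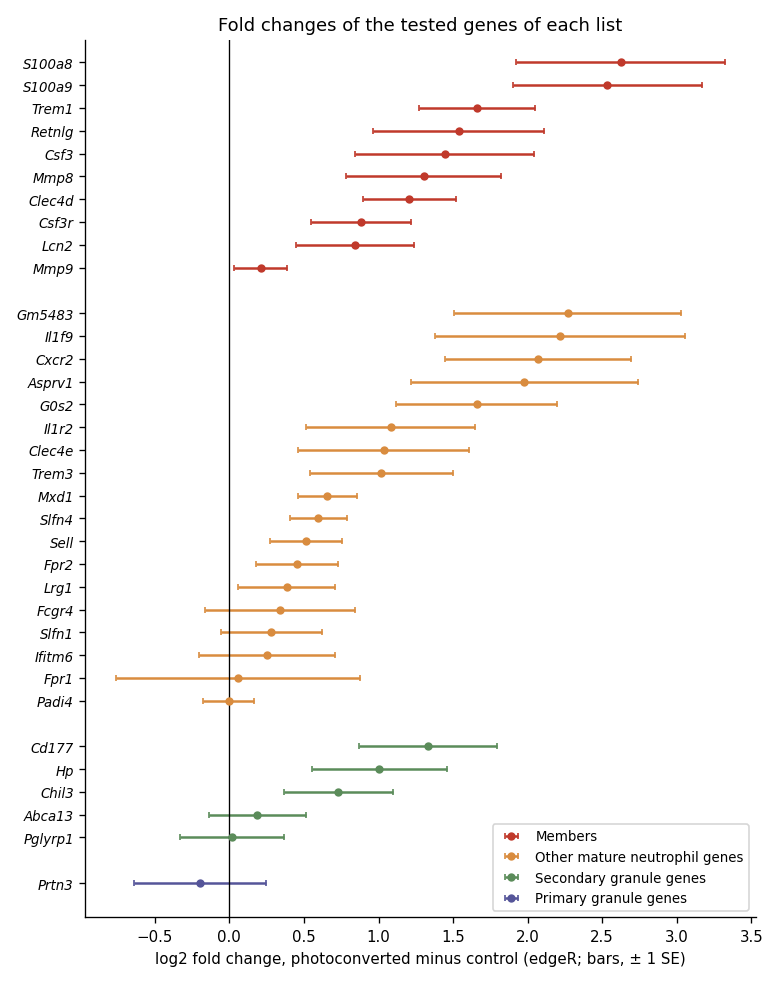
Points give the log2 fold change (photoconverted minus control, edgeR) and bars ± 1 SE for the 10 genes and for the tested genes of 3 comparison lists, on a linear axis of log2 units. S100a8 (2.62) and S100a9 (2.53) lie farthest to the right, Mmp9 (0.21) and Prtn3 (-0.20) lie near 0, and Cd177 (1.33) leads the secondary granule genes.

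Levels can be compared between genes only per length, so CPM was divided by the kilobases of exon. On this scale S100a9 had the highest mean level in photoconverted tumors (34.7 ± 22.0 CPM per kb, SD, n = 4), followed by S100a8 (14.5 ± 9.87), Clec4d (8.84 ± 3.55), Mmp9 (8.47 ± 1.04) and Csf3r (6.91 ± 3.04). Photoconverted tumor 4 did not have this order, since S100a9 (4.97) was below Mmp9 (7.49) there and S100a8 (1.97) was below Mmp9, Clec4d (4.40) and Csf3r (3.60). The spread of S100a8 overlaps those of S100a9 and Clec4d, and the order among Clec4d, Mmp9 and Csf3r lies within their spread, as does that among Retnlg (3.44 ± 2.32), Lcn2 (2.48 ± 0.893) and Trem1 (2.18 ± 0.998), which came next. In control tumors Mmp9 had the highest level (7.31 ± 1.56 CPM per kb), and S100a9 (5.96 ± 2.69), Clec4d (3.81 ± 0.837), Csf3r (3.74 ± 1.12) and S100a8 (2.22 ± 1.31) followed, so Mmp9 and S100a9 overlapped there. Lcn2 (1.36 ± 0.583), Retnlg (1.20 ± 0.435) and Trem1 (0.699 ± 0.0982) were lower in controls. Mmp8 (0.721 ± 0.458 in photoconverted, 0.281 ± 0.107 in control) and Csf3 (0.842 ± 0.539 and 0.336 ± 0.105) were at the bottom in both groups and did not differ beyond their spread. The log2 ratio of the summed counts of S100a8 and S100a9 to Csf3r was 0.35, 0.37, 0.28 and -1.71 in photoconverted tumors 1 to 4, against -1.55, -2.42, -1.93 and -0.51 in controls 1 to 4. Photoconverted tumors 1 to 3 agreed in this ratio to within 0.1, and the other 5 tumors ranged widely below them.

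The spread of these genes within groups was wide for their level. The SD of the log2 CPM around the group means was 1.41 for S100a8 and 1.21 for S100a9, which placed them at the percentile 99.6 and 98.6 among the 500 genes nearest to each in mean level. Csf3 was at percentile 90.6, Retnlg at 88.8, Csf3r at 88.2, Lcn2 at 84.2, Mmp8 at 81.0, Trem1 at 78.8 and Clec4d at 76.6. Mmp9 was at percentile 51.4, that is, in the middle of genes of like level.

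The granule precursor genes were of 2 kinds, those with very few reads and those with enough reads to pass the expression filter. Of 6 primary granule genes, Mpo (myeloperoxidase) had 12 reads in all 8 tumors together, Elane (neutrophil elastase) 12, Ctsg (cathepsin G) 20, Prss57 26 and Ms4a3 1, and none of these 5 passed the expression filter. Of 11 secondary granule genes, Ltf (lactoferrin) had 43 reads in all, Camp (cathelicidin) 6, Ngp 5, Fcnb 1, Itgb2l 4 and Olfm4 20, and these 6 did not pass either. The other 6 genes of both lists passed, with 6537 reads on Hp, 2236 on Chil3, 422 on Pglyrp1, 397 on Prtn3, 385 on Cd177 and 197 on Abca13, and the whole secondary list summed to 29.4 to 90.4 CPM per tumor. Summed over the 11 genes that did not pass, the photoconverted tumors had 29, 37, 19 and 8 reads and the control tumors 24, 4, 18 and 11 reads, 150 in all. The 9 genes of the main list other than Csf3 had 4538, 4002, 4054 and 830 reads in photoconverted and 2552, 463, 1702 and 749 reads in control tumors, 18890 in all. The log2 ratio of these 9 genes to the 11 precursor genes was 7.12 ± 0.49 in photoconverted and 6.56 ± 0.34 in control tumors (SD, n = 4 each). The 11 were set apart after their low counts had been seen, so the size of this ratio is fixed by their choice. With so few reads these genes were not tested in the main fit, and no difference between the groups is read from them.

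The precursor-list genes that did pass the filter behaved unlike each other. Prtn3 (proteinase 3) was at 2.00, 1.93, 1.42 and 2.94 CPM in photoconverted and at 1.31, 2.78, 1.21 and 4.33 CPM in control tumors. Its highest values were in photoconverted tumor 4 and control tumors 2 and 4, the libraries rich in Rn45s, and its log2 fold change was -0.20 (SE 0.44). Cd177, a neutrophil surface glycoprotein, was at 1.68, 4.20, 2.48 and 2.05 CPM in photoconverted and at 1.08, 1.61, 1.21 and 0.305 CPM in control tumors. The 2 groups of Cd177 did not overlap, photoconverted tumor 4 included, but by edgeR its log2 fold change of 1.33 (SE 0.46) had an unadjusted p of 0.0181 and an adjusted p of 0.999. Its lowest value, in control tumor 4, rests on 5 reads. Hp (haptoglobin) had a log2 fold change of 1.01 (SE 0.45), Chil3 of 0.73 (SE 0.36), Abca13 of 0.19 (SE 0.33) and Pglyrp1 of 0.02 (SE 0.35). Hp and Chil3 are also made by macrophages and other cells, and they carried most of the summed level of the secondary list. Over the 5 secondary granule genes tested the median log2 fold change was 0.73 (0.49 without control tumor 3, 0.93 without control tumor 4), and edgeR called 0 of them. The log2 ratio of the summed CPM of the 9 genes to that of the secondary list was 1.81, 0.48, 0.96 and 0.44 in photoconverted tumors and 1.31, 0.75, 0.54 and 0.49 in control tumors, so the groups overlapped and their means differed by 0.15. The 9 genes include Lcn2, whose protein is itself stored in secondary granules, so the ratio does not cleanly part mature from precursor genes. The sign of that difference was not stable, being -0.086 with S100a8 and S100a9 left out and -0.14 without photoconverted tumor 1, whereas mean log2 CPM gave 0.81.

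**Figure D3:**
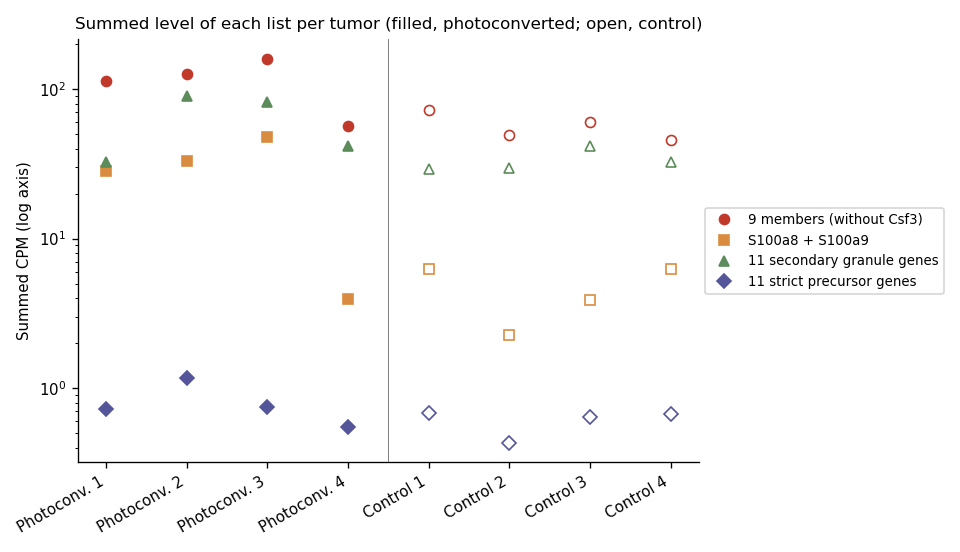
For each tumor the points give the CPM summed over a list on a log axis, for the 9 genes other than Csf3, for S100a8 plus S100a9 (which are among the 9), for the 11 secondary granule genes and for the 11 precursor genes of lowest count. The 9 genes reach 114 to 160 CPM in photoconverted tumors 1 to 3 and 45.7 to 72.9 CPM in the other 5 tumors, whereas the 11 precursor genes stay between 0.428 and 1.17 CPM.

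Other genes typical of mature neutrophils were examined with a list of 27, of which 26 were in the table and 18 were tested. Of these 18, 17 had a log2 fold change above 0 with a median of 0.63, 7 had an unadjusted p under 0.05, all of them higher in photoconverted tumors, and 0 passed the adjusted threshold of edgeR. Over all genes tested, 46.8% had a log2 fold change above 0 and 1.65% were higher at an unadjusted p under 0.05. The median was 1.22 with no expression filter, 1.25 without photoconverted tumor 4, 0.95 without control tumor 1 and 1.08 in DESeq2. These fits tested 20565, 14770, 14592 and 17005 genes, so their medians need not be over the same 18 genes and do not measure a move in them. Genes of the list that failed the main filter include Stfa2l1 and Mrgpra2b, whose reads came mostly from photoconverted tumors 1 to 3 (31, 17 and 17, and 20, 21 and 21). Cxcr2, the receptor for neutrophil-attracting CXC chemokines, was at 6.28, 7.52, 12.8 and 0.957 CPM in photoconverted and at 1.97, 0.749, 1.78 and 1.89 CPM in control tumors (log2 fold change 2.07, SE 0.63). As with S100a8, photoconverted tumors 1 to 3 stood above every control and tumor 4 stood within their range. Mxd1, a MYC antagonist that is raised in maturing granulocytes, had a log2 fold change of 0.66 (SE 0.20), and Slfn4, an interferon-inducible Schlafen gene of myeloid cells, of 0.60 (SE 0.19). Padi4 had a log2 fold change of 0.00 (SE 0.17) at 77.5 to 138 CPM. For 14 of the 18 genes photoconverted tumor 4 was the lowest photoconverted tumor, as it was for 5877 of all 14468 genes tested.

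Genes of the surrounding pathways were read from the same fit. Among 107 tested of 141 genes listed for granule precursors, granulopoiesis, mature neutrophils, receptor signaling and the kin of the 10 genes, edgeR called 0, as it did over all genes. At an unadjusted p under 0.05, 13 of the 107 (12.1%) lay higher and 0 lay lower with photoconversion, beside 1.65% and 0.574% of all genes tested, and 74 of the 107 (69.2%) had a log2 fold change above 0, beside 46.8% of all. Of the 13, 7 were on the list of other mature neutrophil genes. The lists were drawn up with earlier results known, so these shares are a description. All 8 granulopoiesis transcription factors were tested, and none had an unadjusted p under 0.05. Cebpd had a log2 fold change of 0.54 (SE 0.29), Gfi1 of 0.33 (SE 0.33) and Irf8 of 0.24 (SE 0.26). Of 16 genes that signal below the G-CSF receptor, Socs3, a feedback inhibitor of cytokine receptors, had a log2 fold change of 0.84 (SE 0.25) and Stat3, which the receptor activates, of 0.40 (SE 0.13), and both had an unadjusted p under 0.05. The CPM of Stat3 did not overlap between the groups (176 to 241 in photoconverted, 137 to 173 in control), whereas that of Socs3 did. The other 14, with Jak1, Jak2, Stat5a and Stat5b among them, had unadjusted p-values above the threshold, and the median log2 fold change over the 16 was 0.05.

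Of the 18 tested adaptors and relatives of Trem1 and Clec4d, 0 had an unadjusted p under 0.05 and the median log2 fold change was 0.05. Tyrobp, the adaptor through which Trem1 signals, had a log2 fold change of 0.05 (SE 0.27), and Fcer1g, the adaptor of the Clec4d and Clec4e receptors, of 0.23 (SE 0.25). Trem3 (1.02, SE 0.48) and Clec4e (1.03, SE 0.57) had log2 fold changes nearest in size to those of Trem1 and Clec4d, and the groups overlapped for both. The CPM of Bcl10, which acts below both adaptors, did not overlap between the groups (69.1 to 71.6 in photoconverted, 56.5 to 65.2 in control), with a log2 fold change of 0.17 (SE 0.09). Among the 6 receptors of S100A8 and S100A9, Cd14 had a log2 fold change of 0.74 (SE 0.28) with an unadjusted p under 0.05, and Tlr4 had 0.21 (SE 0.32). The 9 other S100 genes tested had a median log2 fold change of 0.01 (range -0.15 to 0.24), and none had an unadjusted p under 0.05. Of 15 other metalloproteinases and their inhibitors, Mmp19 alone had an unadjusted p under 0.05 (log2 fold change 0.70, SE 0.28). Among 10 other colony stimulating factors and receptors, Csf1, the growth factor of macrophages, had a log2 fold change of 0.45 (SE 0.15) with groups that did not overlap, and the median over the 10 was -0.06.

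The 9 genes other than Csf3 varied together across tumors. Csf3 is treated on its own, but its log2 CPM also correlated with theirs over the 8 tumors (Pearson's r from 0.33 with Mmp9 to 0.88 with Retnlg). Pearson's r of the log2 CPM between pairs of the 9 genes had a median of 0.85 over the 8 tumors. For deviations from the group means, from which only the difference between those means is removed, the median was 0.75. The deviations keep the gap between photoconverted tumor 4 and the other photoconverted tumors (9-gene averages of -0.71 against 0.80, 1.05 and 1.39). The genes were selected as higher in photoconverted tumors, a difference those others carry, so 0.75 is not free of that selection. No r of deviations was computed without photoconverted tumor 4. All these r values are descriptions over 8 tumors that differ in library depth and Rn45s share, and every gene is read from the same 8 libraries. The median r of a gene with the others was 0.90 for S100a8 and Clec4d, 0.88 for S100a9 and Mmp8, 0.86 for Csf3r, 0.85 for Trem1 and Retnlg, 0.77 for Lcn2 and 0.58 for Mmp9. Averaged over the 9 genes, the log2 CPM relative to the mean of all tumors was 0.80, 1.05, 1.39 and -0.71 in photoconverted tumors 1 to 4, against -0.18, -1.06, -0.56 and -0.73 in controls 1 to 4. Photoconverted tumor 4 and control tumor 4 thus had almost the same average.

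**Figure D4:**
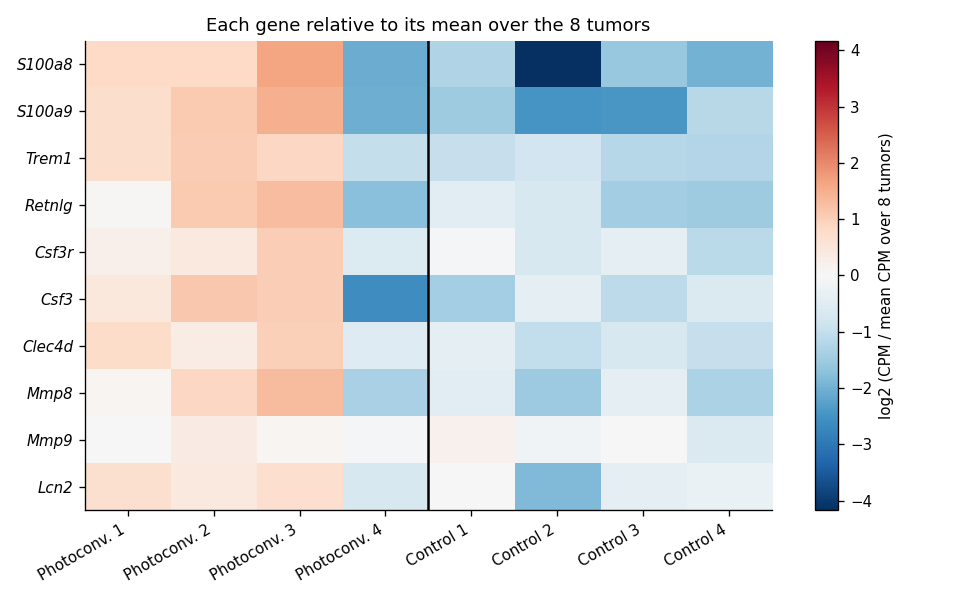
Colors give the log2 ratio of the CPM of each gene to its mean over the 8 tumors, with photoconverted tumors to the left and control tumors to the right of the black line. Photoconverted tumors 1 to 3 are at or above the mean for every gene, photoconverted tumor 4 is below it for every gene, and the lowest value is S100a8 in control tumor 2 (-4.17).

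Among 13302 tested genes with a mean of at least 1 CPM that are not on the list, those with profiles most like the average of the 9 were Ppp1r3b (r = 0.99), Il6 (0.98), Cxcr2 (0.98), Tnfaip6 (0.98), Cxcl5 (0.97), Slc39a14 (0.96), Has1 (0.96), Adm (0.96), Irg1 (0.96) and Fosl2 (0.96), each over 8 tumors. Il6, the acute-phase cytokine, was at 5.05, 4.83, 7.76 and 0.342 CPM in photoconverted and at 0.885, 0.214, 0.818 and 0.610 CPM in control tumors. Its lowest value, in control tumor 2, was below the 0.321 CPM that 3 reads make there. The profiles most like that of Csf3 were led by Tgm1 (r = 0.96), Cxcl3 (0.95) and Il1f9 (0.93), with Prkaa2, Mcpt4, Ppp1r27, Angptl4, Prg4 and Sdcbp2 among the next. Cxcl3, a neutrophil chemoattractant, was at 4.25, 2.62, 3.98 and 0.205 CPM in photoconverted and at 0.514, 0.963, 0.391 and 0.977 CPM in control tumors. Its value in photoconverted tumor 4 rests on 3 reads. Of the precursor-list genes tested, Hp had r = 0.67 with the average of the 9, Cd177 0.59, Chil3 0.48, Abca13 0.45, Pglyrp1 0.26 and Prtn3 -0.46.

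Markers of other cells were read beside these results. The 5 leukocyte markers had a median log2 fold change of 0.05 and a summed level of 364 to 739 CPM in photoconverted and 260 to 668 CPM in control tumors, and the 8 macrophage markers a median of -0.11 with 502 to 1123 CPM and 390 to 975 CPM. The log2 ratio of the 9 genes to the leukocyte markers was -2.32 ± 0.25 in photoconverted and -3.10 ± 0.42 in control tumors (SD, n = 4 each). The groups overlapped, since photoconverted tumor 4 was at -2.68 and control tumor 4 at -2.51. The 5 T cell markers had a median of -0.08. Some markers of tissue around a tumor moved with the 10 genes. The 6 skeletal muscle markers all had log2 fold changes above 0 (median 1.18), and their summed level was 147 to 1272 CPM in photoconverted and 149 to 366 CPM in control tumors. Of the 7 keratinocyte markers 2 passed the filter (median 2.01), and the summed level of the 6 in the table was 1.60, 16.1, 16.8 and 1.03 CPM in photoconverted and 1.06, 2.03, 2.45 and 1.77 CPM in control tumors. The 5 mast cell markers all had log2 fold changes above 0 (median 0.56; 10.5 to 29.2 CPM in photoconverted, 8.79 to 21.9 CPM in control tumors), as did the 2 eosinophil markers tested (median 0.82; 0.683 to 3.74 and 0.428 to 1.88 CPM summed over 4). Of the platelet markers 3 of 4 were tested and all had log2 fold changes above 0 (median 0.17), with Ppbp at 1.59 (SE 0.54) and an unadjusted p under 0.05 in edgeR, and their summed level was 15.5 to 31.8 CPM in photoconverted against 12.8 to 35.9 CPM in control tumors. The 5 red blood cell markers had a median of 0.60 and summed to 275 to 1760 CPM with photoconversion and 123 to 1809 CPM without it, the highest being control tumor 2. Over the same 8 tumors, which differ in depth and Rn45s share, r with the average of the 9 genes was 0.86 for the muscle, mast cell and eosinophil markers, 0.85 for platelets, 0.80 for keratinocytes, 0.67 for endothelium, 0.65 for monocytes, 0.60 for leukocytes, 0.51 for epithelial and tumor cells, 0.48 for red blood cells, 0.45 for fibroblasts, 0.43 for macrophages, 0.27 for T cells and -0.32 for B cells. The 4 endothelial markers all had log2 fold changes above 0 (median 0.22; 82.4 to 149 CPM summed in photoconverted, 74.8 to 126 CPM in control tumors), and the 5 monocyte markers had a median of 0.13 (274 to 467 and 196 to 550 CPM). The part of muscle, skin, mast cells, eosinophils, platelets, blood, endothelium and monocytes in the difference of the 10 genes was not tested.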

How the data were processed

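RNA of 8 whole tumors was sequenced as stranded total RNA with paired reads. The sample labels name a SMARTER kit and the methods of the study a TruSeq kit. The authors deposited raw counts of reads per gene symbol, without normalization, and a normalized table (unit signal) that equaled those counts divided by DESeq2 size factors. The submitters' processing notes name mm10, CASAVA, FastQC, Trim Galore, HISAT2, featureCounts and DESeq2, and the annotation is not given in the sources used here. The strand setting of the counting is likewise not given. The normalized table held 19823 genes, and those left out had at most 1 count in all. Every count carried a gene name, and 0 columns were left unused.

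Groups and replicate numbers came from the sample labels. Counts were tested with edgeR 4.0.16 in R 4.3.3 (TMM, filterByExpr by group, glmQLFit, glmQLFTest, Benjamini-Hochberg adjustment over all 14468 genes tested, threshold 0.05), with all 8 tumors and no covariate. CPM used TMM factors, and log2 CPM a prior count of 2. The 10 genes and all gene lists were chosen with earlier results of these data known. Named genes were the 10, all granule precursor genes, up to 3 genes of smallest p per other list and the 10 most alike in profile, of which 1 is not reported here. Padi4, Tyrobp, Fcer1g, Tlr4, Jak1, Jak2, Stat5a and Stat5b were named outside this rule, for their role or after their values were seen. The labels give both groups replicate numbers 1 to 4, and the deviations from group means of same-numbered tumors correlated across genes in every pair (r = 0.60, 0.11, 0.41 and 0.62). Differently numbered tumors had a mean r of -0.13 but reached 0.48. Some differently numbered tumors of like Rn45s share also correlated (photoconverted 3 with control 1, 0.48, and photoconverted 4 with control 2, 0.35). Photoconverted tumor 2 with control tumor 1, both under 10%, had -0.14, and photoconverted tumor 3 with control tumor 4, unlike in share, had -0.60. These r values therefore cannot show that the numbers pair the tumors. Since every same-numbered r was above 0.1, a fit with the number as a block was run, as an alternative only. Alternatives were DESeq2 1.42.0, limma 3.58.1 on log2 of the deposited normalized values plus 1, other scalings, no filter, Rn45s as covariate or left out, 5 tumors with an Rn45s share under 10%, and each tumor left out. Procedures were tested on simulated data. No 2 libraries of a group agreed within sampling noise (smallest chi-square per degree of freedom 23.8). Nothing states that the tumors came from separate experiments, so the p-values measure only the spread between them. Promoters came from RefSeq and gene models from GENCODE.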

Additional observations from a re-analysis of the deposited data

How the results depend on the processing

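edgeR called 0 genes, and 0 of the 10 neutrophil genes, with DESeq2 size factors, library size only, no filter, Rn45s left out, the Rn45s share as a covariate or the replicate number as a block, and limma called 0 as well. With the replicate block, 869 genes had an unadjusted p under 0.05 against 322 without it, and the median over the 10 genes was 1.22 against 1.37. DESeq2 called 24 genes and the 5 tumors with an Rn45s share under 10% gave 42, each with S100a8, S100a9 and Trem1 (3 of the 10), and the 5 tumors also called 2 of the other pathway genes (Mxd1 and Cd14). With 1 tumor left out in turn, 0 to 11 genes and 0 to 2 of the 10 were called, and the 11 and the 2 (S100a9 and Trem1) came from leaving out photoconverted tumor 4. The 10 were selected on this contrast, so nothing is read from the calls among them. The median log2 fold change of the other mature neutrophil genes was 0.63 in the main fit and 1.22 with no filter. With 1 tumor left out it was between 0.51 and 1.25, the highest without photoconverted tumor 4. The genes tested differed between these fits, so these medians need not be over the same genes. The difference in log2 ratio of the 9 genes to the secondary granule genes was 0.15, but -0.086 with S100a8 and S100a9 left out, 0.81 from mean log2 CPM, and -0.14 to 0.33 with 1 tumor left out, the lowest without photoconverted tumor 1 and the highest without control tumor 1. The cause was not tested. The median log2 fold change of the 10 genes was 1.10 to 1.68 with 1 tumor left out, and the median correlation was 0.81 to 0.90. Low counts limit, among other genes, S100a8, Csf3, Retnlg, Mmp8, Cxcr2, Cd177 and Abca13, which had 2 to 8 reads in some libraries. Low counts also limit the 11 precursor genes that did not pass the filter, whose differences were not tested in the main fit. The ratio of the 9 genes to the secondary granule genes rests mainly on Hp and Chil3 (0.41 with both left out, an alternative chosen after seeing the data, as was the count of the 10 genes called).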
